A study of Oryza sativa with 10 samples.

Results

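Dense clusters of G-quadruplex capture regions in the rice genome were examined as 10 kb bins that held the midpoints of at least 6 regions. The regions were made by pooling 3 distinct lists of capture peaks and merging peaks that overlapped by at least 1 bp, and each chromosome was cut in bins from its first base. Of 37322 bins, 1803 (4.83%) were dense, and the other 35519 served as the rest of the genome. The presence of peaks chose the bins, so the number of regions, the lists that held them and the strength of their peaks are given as descriptions, with no test. Tests were made on lists that had no part in the choice of bins.

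G-quadruplexes are four-stranded structures in which guanine-rich DNA folds into stacked guanine quartets held together by cations such as potassium. A stretch with many guanine runs can form more than one quadruplex, and in plant genomes such runs are found in promoters and genes as well as in repeats. Template-assembled synthetic G-quartets (TASQs) are small molecules that present guanines which can close into a quartet of their own, and they are used as baits for quadruplexes through quartet stacking. BG4 is an antibody fragment raised against the folded structure.

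The study set small-molecule baits and the antibody BG4 side by side for capture of G-quadruplex DNA from rice, cultivar Nipponbare. The groups were BioCyTASQ in vitro, BioTASQ in vivo and BioTASQ in vitro, with 2 libraries each, and their controls, biotin in vitro, biotin in vivo, input in vitro and input in vivo, with 1 library each. All 10 libraries came from whole seedlings aged 2 weeks that had been fixed with 1% formaldehyde for 10 min. Whole seedlings mix many cell types, and the labels say no more of the conditions than vitro or vivo.

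There was 1 list for each capture, with replicates not kept apart, so an error between replicates cannot be given. The spread over the 12 chromosomes is given instead, and chromosomes are spatial units, not replicates. The list deposited for BG4 had the same 29469 rows as the list for BioTASQ in vitro, and the names of these rows contain the word flag and not TASQ. Which capture they come from is not settled by the files, and BG4/BioTASQ in vitro is used here as the name of that list. BioCyTASQ in vitro had 49898 distinct peaks, BioTASQ in vivo 57500 and BG4/BioTASQ in vitro 29443. Coordinates count from 1 on the rice build the authors used, whose name no label or header gives. The genes and sequences at these places, and the read depth of each library, were not analysed here.

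Rows of one list can be parts of the same called peak, which bears on every count of regions. In the BioTASQ in vivo list 8155 rows (14.2%) shared their peak name with another row, and the median gap between such rows was 239 bp. In the BioCyTASQ in vitro list 838 rows (1.68%) did so, and in the BG4/BioTASQ in vitro list 0. Rows with a shared name made up 21.1% of BioTASQ in vivo peaks in dense bins and 13.2% in the other bins. For BioCyTASQ in vitro the shares were 3.65% in dense bins and 1.30% in the other bins. When the rows of a name were joined to 1 interval, 1442 bins were dense, and all of them were among the 1803. The split rows thus carried 361 bins past the limit of 6, and 79.98% of the dense bins did not need them.

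Dense bins were the upper end of a continuous distribution. The 37322 bins held 2.36 regions on average, with a variance of 2.81, and 4451 bins (11.9%) held none. Among the dense bins, 1099 held 6 regions, 469 held 7, 176 held 8, 44 held 9 and 15 held 10. Just outside the limit, 2286 bins held 5 regions. The bins with 6 regions had 9.55 peaks per bin and a median of 2954 bp in regions, and the bins with 5 regions had 7.87 peaks and 2356 bp. Nothing in these values sets the bins with 6 regions apart from those with 5.

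**Figure D1:**
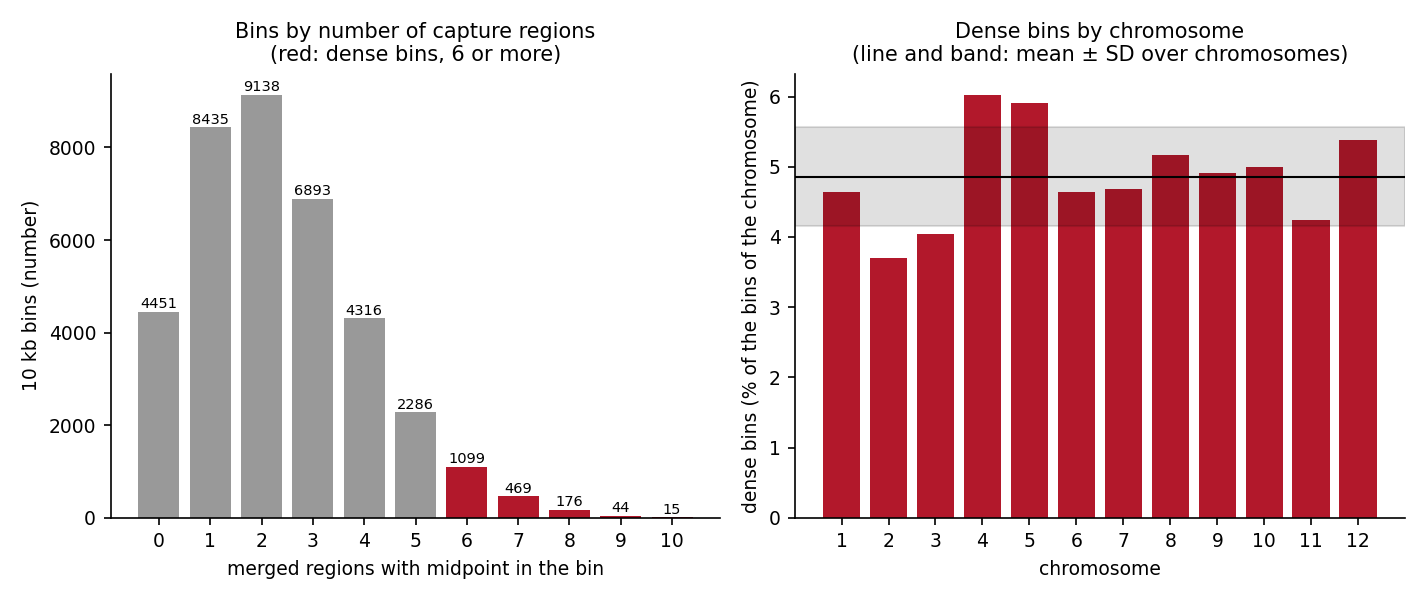
Left, number of 10 kb bins against the number of merged capture regions with their midpoint in the bin, dense bins in red. Right, dense bins as a percentage of the bins of each chromosome, with the mean and SD over chromosomes: the 1803 dense bins made up 6.03% of bins on chromosome 4 and 3.70% on chromosome 2.

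Although they made up 4.83% of bins, dense bins held 11831 of the 87915 regions, or 13.5%. The mean was 6.56 regions in a dense bin and 2.14 in another bin. Regions were a little wider in dense bins, with a median of 399 bp, against 376 bp in the other bins. The total length of regions was 34.7% of the bin on average in dense bins and 10.5% in the other bins. Neighbouring regions of the same bin were separated by a median of 594 bp in dense bins and 1220 bp in the other bins. In dense bins 13.3% of these gaps were 200 bp or shorter, and in the other bins 8.59%. Most gaps between neighbouring regions in dense bins were therefore longer than 200 bp. This limit cannot tell separate stretches from parts of the same called peak. Rows with a shared name lay a median of 239 bp apart in the BioTASQ in vivo list and 202 bp in the BioCyTASQ in vitro list. With gaps of up to 200 bp merged, 1141 bins were dense, and with rows of a shared name joined, 1442.

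Dense bins were found on all 12 chromosomes, at 4.86% ± 0.699 of the bins (mean ± SD, n = 12 chromosomes). The share was above 5.5% on chromosome 4, with 214 dense bins (6.03%), and on chromosome 5, with 177 (5.91%). It was lowest on chromosome 2, with 133 (3.70%), and on chromosome 3, with 147 (4.04%). Chromosome 1, the longest, had 201 (4.65%). The other 7 chromosomes lay between 4.24% and 5.38%.

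Along the chromosomes, dense bins were more frequent in the interior than towards the ends. More than 5 Mb from either end 5.26% of bins were dense (SD 0.759 over 12 chromosomes), and within 5 Mb of an end 3.93% (SD 0.839). The interior share was the higher one on 11 of 12 chromosomes. Chromosome 4 was the exception, with 6.0% in the interior and 6.09% near its ends. With each chromosome cut in 10 equal parts from its first base, the share was highest in the fourth, at 7.02%, and in the third, at 6.19%. It was lowest in the second, at 3.64%, and in the last, at 3.69%. All regions showed the same direction with a smaller contrast, 2.43 per bin in the interior and 2.19 within 5 Mb of an end. The limit of 5 Mb was chosen after the values were seen.

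In windows of 1 Mb the number of dense bins ran from 0 to 17, with a median of 4 over 368 full windows. Only 10 windows (2.72%) had none. The window with 17 lay on chromosome 6 (18000001 to 19000000). Another 6 windows had 15 dense bins each. They lay on chromosome 5 (10000001 to 11000000 and 15000001 to 16000000), chromosome 4 (3000001 to 4000000 and 7000001 to 8000000), chromosome 7 (9000001 to 10000000) and chromosome 8 (6000001 to 7000000).

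Most dense bins stood alone. Of 1803, 1442 (79.98%) had no dense bin beside them, and the other 361 formed 136 runs of 2 bins, 25 runs of 3, 2 runs of 4 and 1 run of 6. The number without a dense neighbour equals that of the bins that stayed dense with rows joined, but the sets differ, with 1142 bins in both. A dense bin had a dense neighbour in 20.02% of cases, and another bin had one in 8.73%. An empty neighbour was found beside 12.04% of dense bins and 22.5% of the other bins.

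The run of 6 lay on chromosome 10 (3190001 to 3250000). Its bins held 7, 6, 6, 6, 6 and 8 regions in order, 39 in 60 kb, and the bins on its sides held 3 and 4. It had 32 BioCyTASQ in vitro peaks with a median fold enrichment, the authors' deposited ratio of peak over control, of 3.37. There were 21 BioTASQ in vivo peaks with a median of 4.40 and 14 peaks of the BG4/BioTASQ in vitro list with 4.20. Of the 39 regions, 6 were held by all lists. Joining rows of a shared name left the count at 39.

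The runs of 4 lay on chromosome 8 (6970001 to 7010000), with 7, 6, 8 and 9 regions, and on chromosome 5 (10590001 to 10630000), with 8, 7, 6 and 7. Both had more BioCyTASQ in vitro peaks, 27 and 24, than BioTASQ in vivo peaks, 13 and 10, or BG4/BioTASQ in vitro peaks, 13 and 9. The median BioCyTASQ in vitro fold enrichment was 3.62 in the chromosome 8 run and 3.45 in the chromosome 5 run. Joining rows of a shared name left 30 of 30 and 27 of 28 regions.

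The neighbourhood of dense bins was only mildly denser than the genome. Bins directly beside a dense bin held 3.04 regions (SD 0.168 over 12 chromosomes), 1.29 times the mean of all bins. At 20 kb the mean was 2.65, at 50 kb 2.56, at 100 kb 2.45 and at 200 kb 2.43. BioCyTASQ in vitro peaks carried most of this rise, at 1.54 times their mean in the adjacent bins, while BioTASQ in vivo and BG4/BioTASQ in vitro both stood at 1.24. At 200 kb the ratios were 1.06, 1.01 and 1.09 in the same order. Dense bins thus lay in stretches of slightly raised density, and the excess of the bin itself, 2.79 times the mean and fixed by the rule, did not extend far beyond it.

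Every list contributed to most dense bins. Peaks of all 3 lists were present in 1443 (80.03%), of 2 lists in 339 (18.8%) and of 1 list in 21 (1.16%). BioCyTASQ in vitro was absent from 33 dense bins (1.83%), against 35.2% of the other bins. BioTASQ in vivo was absent from 27 (1.498%), against 26.2%, and BG4/BioTASQ in vitro from 321 (17.8%), against 50.9%. The other bins include the 4451 that held no region of any list. Dense bins also held 10.4 peaks on average, against 3.32 in the other bins, and more peaks leave fewer lists absent. The rule thus fixes much of this contrast and of the presence of all lists, and bins with like numbers of peaks were not compared. In 1069 dense bins (59.3%) no single list held 6 regions, counting those it shared with other lists. There the count of 6 was reached by adding the lists. Counted in the same way, BioCyTASQ in vitro held 6 or more regions in 563 dense bins, BioTASQ in vivo in 193 and BG4/BioTASQ in vitro in 28.

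BioCyTASQ in vitro was the leading list of dense bins, although the BioTASQ in vivo list was longer. BioCyTASQ in vitro also had the lowest −log10 q, at 1.31, and its lead was not counted again at a common limit. A dense bin held on average 4.47 BioCyTASQ in vitro peaks, against 1.18 in another bin, a ratio of 3.80. It held 3.90 BioTASQ in vivo peaks, against 1.42, and 2.04 of the BG4/BioTASQ in vitro list, against 0.726, ratios of 2.75 and 2.81. BioCyTASQ in vitro gave the largest number of peaks in 837 dense bins (46.4%), BioTASQ in vivo in 576 (31.9%) and BG4/BioTASQ in vitro in 113 (6.27%), and 277 were shared leads. Of all peaks of a list, 16.2% of BioCyTASQ in vitro lay in dense bins, 12.2% of BioTASQ in vivo and 12.5% of BG4/BioTASQ in vitro.

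Region by region, the make-up of dense bins was shifted towards regions of BioCyTASQ in vitro alone. Such regions made up 26.1% of the 11831 in dense bins (SD 2.73 over 12 chromosomes) and 16.7% (SD 1.39) in the other bins. Regions of BioTASQ in vivo alone made up 18.9% (SD 2.89) in dense bins and 26.2% (SD 2.17) in the other bins. Regions found in the BG4/BioTASQ in vitro list alone were 11.9% (SD 1.44) in dense bins and 15.6% (SD 1.27) elsewhere. Each of these directions was seen on 12 of 12 chromosomes. With only peaks of −log10 q of at least 3 in every list, the differences of dense minus other bins were 8.49, −6.21 and −3.18 percentage points in the same order. That limit removed BioCyTASQ in vitro peaks only, since no peak of the other lists lay below it.

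Regions held by more than 1 list differed by fewer percentage points. Regions that BioCyTASQ in vitro held with the BG4/BioTASQ in vitro list alone made up 6.42% in dense bins and 4.14% in the other bins. Those of the BioTASQ in vivo list with BG4/BioTASQ in vitro were 1.79% in dense bins and 3.89% elsewhere. Both of these directions were also seen on 12 of 12 chromosomes, and 19.4% of the first kind and 6.69% of the second lay in dense bins, against 19.6% of regions of BioCyTASQ in vitro alone. Regions common to BioTASQ in vivo and BioCyTASQ in vitro only were 25.2% in dense bins and 24.5% in the other bins, and regions of all lists 9.75% and 8.97%, with differences of both signs over the chromosomes. An overlap joins 2 peaks to 1 region, so the rule itself favours bins whose peaks do not overlap. With bins chosen by at least 9 peak midpoints in place of 6 regions, regions of all lists were 9.34 percentage points more frequent in dense than in other bins, and regions of BioCyTASQ in vitro alone 4.11 points more frequent.

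The make-up changed step by step with the number of regions in the bin. Regions of BioCyTASQ in vitro alone were 13.5% in bins with 1 region, 15.8% with 3, 20.99% with 5, 23.5% with 6, 29.0% with 7 and 34.6% with 9. In the 15 bins with 10 regions the share was 32.0%. Regions of BioTASQ in vivo alone were 25.3% with 1 region, 27.3% with 3, 23.9% with 5, 20.4% with 6 and 10.0% with 10. Regions of all lists stayed between 8.33% and 10.2% over the whole range.

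**Figure D2:**
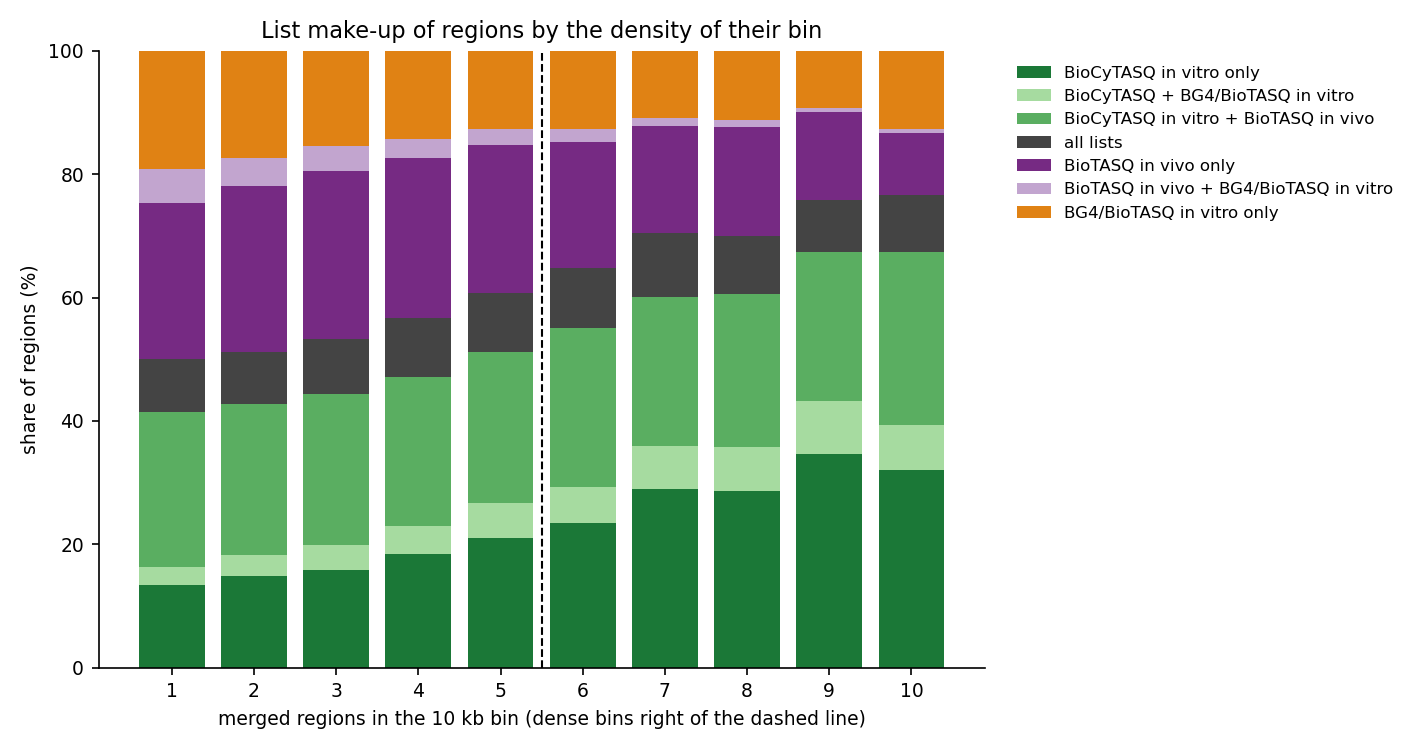
Share of merged regions (%) by the lists that held them, against the number of regions in their 10 kb bin, with dense bins right of the dashed line. Regions of BioCyTASQ in vitro alone (dark green, bottom) widen from left to right, and regions of BioTASQ in vivo alone (purple) narrow.

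The peaks of BioCyTASQ in vitro in dense bins were weaker than elsewhere, by the authors' values. Their median fold enrichment was 3.50 in dense bins (SD 0.143 over 12 chromosomes) and 3.98 in the other bins (SD 0.120), lower in dense bins on 12 of 12 chromosomes. The median −log10 q was 12.7 in dense bins and 18.4 in the other bins. With only peaks of −log10 q of at least 3 in every list, the difference of dense minus other bins in median fold enrichment was −0.444. With BioCyTASQ in vitro peaks split by fold enrichment into 5 equally large groups, 19.1% of the weakest group lay in dense bins, 19.6% of the second, 16.2% of the third, 12.1% of the fourth and 13.7% of the strongest. Peaks in regions of BioCyTASQ in vitro alone had a median of 3.09 in dense bins and 3.39 elsewhere, and peaks shared with BioTASQ in vivo alone 4.94 and 5.10. Peaks shared with BG4/BioTASQ in vitro alone had 2.91 in dense bins and 3.01 elsewhere, and peaks in regions of all lists 3.66 and 3.77. How much of the shift went with the make-up was not tested.

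Both parts of the fold enrichment of these peaks were lower in dense bins. The count of fragments stacked at a summit, its pileup, was solved from fold enrichment and −log10 p under the formulas of the peak caller. For BioCyTASQ in vitro its median was 49 fragments in dense bins and 63 in the other bins. The control level, the number of fragments expected there, was 11.6 in dense bins and 12.4 in the other bins. Both were lower in dense bins on 12 of 12 chromosomes.

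BioTASQ in vivo peaks were about as strong in dense bins as elsewhere. The median fold enrichment was 4.48 in dense bins (SD 0.0801) and 4.41 in the other bins (SD 0.0323), and with rows of a shared name joined the difference of dense minus other bins was −0.0597. The median pileup was 77 fragments in dense bins and 76 in the other bins, and the control level 15.7 and 16.2. In dense bins this median equalled 15.7, the lowest control level of the list. The deposited summit offset reached or passed the row's own end for 25.5% of BioTASQ in vivo peaks in dense bins and 22.6% elsewhere. For BioCyTASQ in vitro these shares were 3.34% and 1.76%. Fold enrichment and pileup refer to the summit, so the values of such rows may belong to a place outside them. For the BG4/BioTASQ in vitro list the median fold enrichment was 4.61 in dense bins (SD 0.113) and 4.84 in the other bins (SD 0.0615), lower on 11 of 12 chromosomes. Median peak widths were 341 bp in dense and 342 bp in other bins for BioTASQ in vivo, and 230 bp in dense and 227 bp in other bins for BG4/BioTASQ in vitro. BioCyTASQ in vitro peaks were wider in dense bins, at 435 bp, against 409 bp in the other bins, on 11 of 12 chromosomes.

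**Figure D3:**
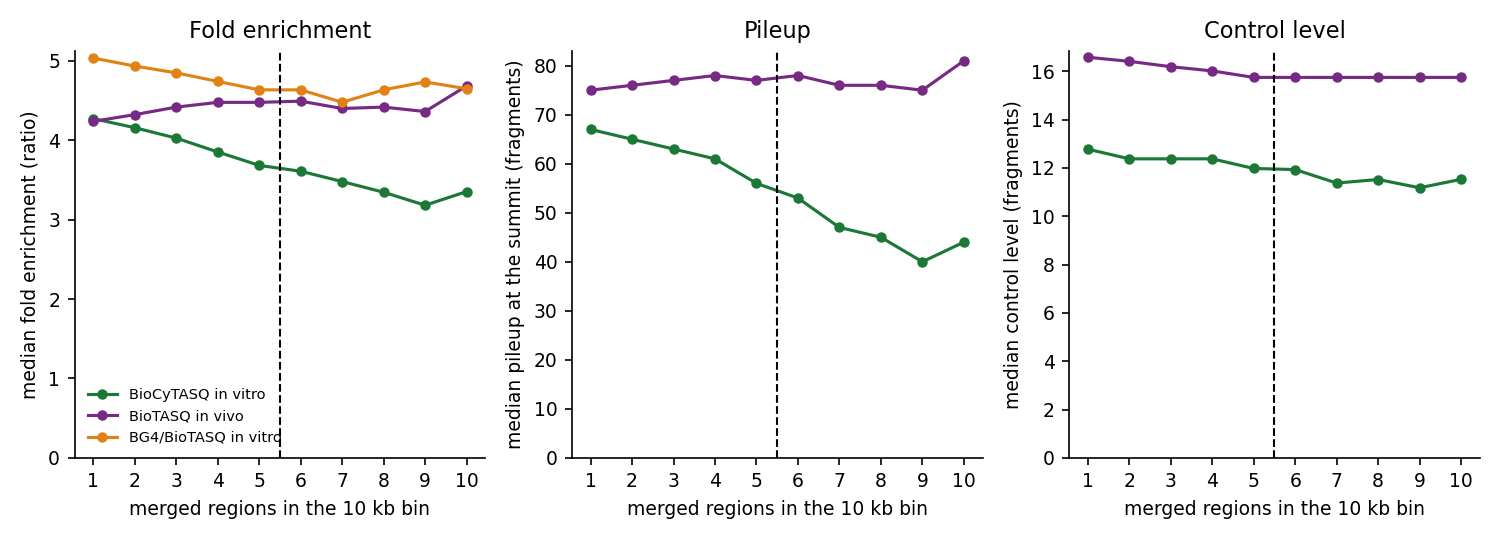
Median fold enrichment (ratio, 3 lists), median pileup at the summit and median control level (both in fragments, 2 lists) of peaks against the number of merged regions in their 10 kb bin, dense bins right of the dashed line. BioCyTASQ in vitro medians were 4.27 and 67 fragments in bins with 1 region and 3.18 and 40 fragments in the 44 bins with 9. In the 15 bins with 10 regions they were 3.35 and 44 fragments. The lines of BioTASQ in vivo stay nearly level.

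Whether density in some lists goes with density in another was tested on bins chosen without the list that was measured. Bins with at least 5 regions of 2 lists were taken as dense, and peaks of the third list were counted in them. The tests flipped the signs of the 12 chromosome values in all ways (exact permutation test, two-sided, smallest possible p 0.000488), with Benjamini-Hochberg adjustment over 3 lists. Each list was denser where the others were dense, on 12 of 12 chromosomes. The count included left-out peaks that overlap the regions by which a bin was chosen. Such shared places raise the ratio by themselves, and their part in it was not tested.

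For BioCyTASQ in vitro, 2746 bins (7.36%) were dense in the other lists. They held 3.22 ± 0.228 BioCyTASQ in vitro peaks per bin, against 1.20 ± 0.0883 in the remaining bins (mean ± SD, n = 12 chromosomes). The log2 ratio was 1.42 (SD 0.07, p = 0.000488, exact permutation test, adjusted p = 0.000488). For BioTASQ in vivo, 2229 bins (5.97%) were dense in the other lists and held 3.18 ± 0.157 of its peaks, against 1.43 ± 0.0659. The log2 ratio was 1.15 (SD 0.08, p = 0.000488, exact, adjusted p = 0.000488). For the BG4/BioTASQ in vitro list, 2845 bins (7.62%) held 1.51 ± 0.110 of its peaks, against 0.734 ± 0.0339. The log2 ratio was 1.03 (SD 0.10, p = 0.000488, exact, adjusted p = 0.000488).

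The remaining bins include stretches without any call. With only those bins kept that held at least 1 region of the other lists, the log2 ratios were 1.23 (BioCyTASQ in vitro), 0.94 (BioTASQ in vivo) and 0.89 (BG4/BioTASQ in vitro) (p = 0.000488 each, exact permutation test). The labels and files used here do not name the control of each list, and the part of a shared control in these ratios was not tested. Bins with 0, 4 and 7 regions of the other lists held 0.357, 2.34 and 3.95 BioCyTASQ in vitro peaks, 0.655, 2.60 and 3.55 BioTASQ in vivo peaks, and 0.412, 1.18 and 1.68 peaks of the BG4/BioTASQ in vitro list. Bins with 8 or more held 4.64 BioCyTASQ in vitro peaks, 3.50 BioTASQ in vivo peaks and 1.75 of the BG4/BioTASQ in vitro list, so BioTASQ in vivo was no higher there than in bins with 7.

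**Figure D4:**
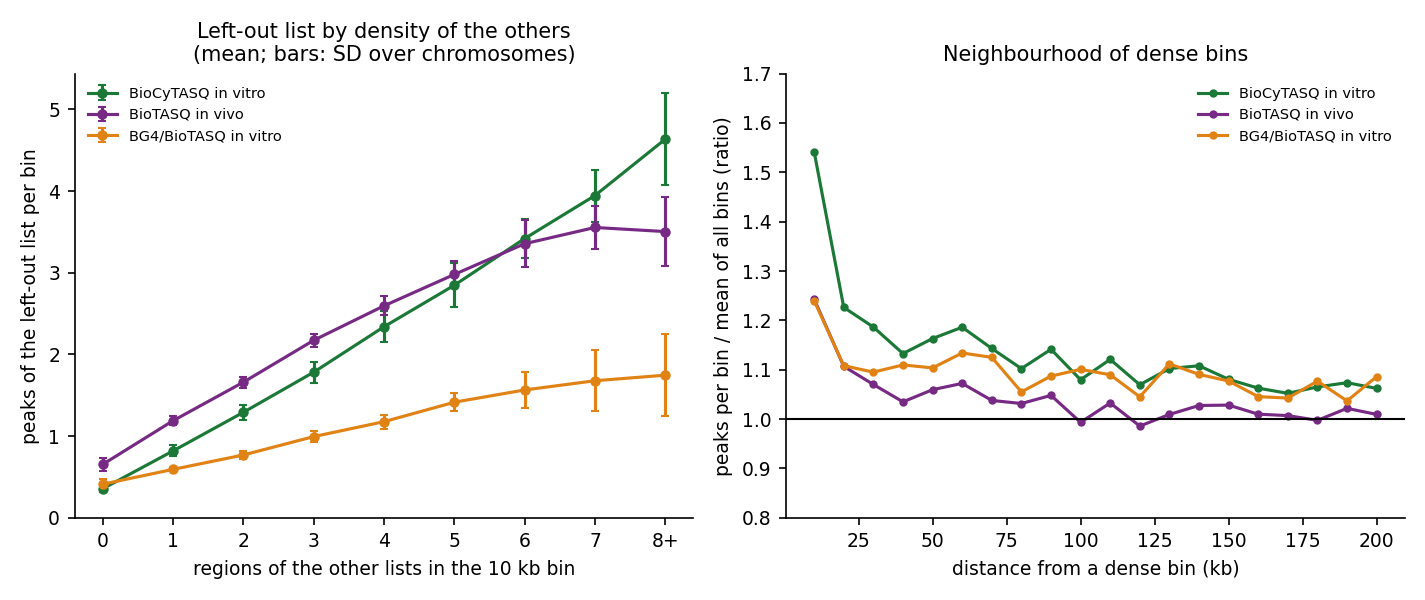
Left, mean peaks per 10 kb bin of the list left out of the choice, against the number of regions of the other lists in the bin (8+ is 8 or more), with the SD over chromosomes as bars. Right, peaks per bin at 10 to 200 kb from a dense bin over the mean of all bins (ratio, line at 1): BioCyTASQ in vitro starts at 1.54 and the other lists at 1.24.

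Fold enrichment of the left-out list was compared in the same bins. The left-out peaks again included those that overlap the regions by which a bin was chosen, and their part in these differences was not tested. In bins dense in the other lists, BG4/BioTASQ in vitro peaks had a median fold enrichment of 4.60, against 4.84 in the remaining bins (means of 12 chromosomes). The difference was −0.246 (SD 0.0876, lower on 12 of 12 chromosomes, p = 0.000488, exact, adjusted p = 0.00146). BioTASQ in vivo peaks had 4.52 in the bins dense in the other lists, against 4.39 in the remaining bins. Their difference was 0.131 (SD 0.0973, higher on 11 of 12 chromosomes, p = 0.00195, exact, adjusted p = 0.00195). With only bins kept that held a region of the other lists, it was 0.0824 (adjusted p = 0.0146, exact). Outside the dense bins chosen with all lists, BioTASQ in vivo peaks in regions of that list alone had a median of 4.00. There, peaks shared with BioCyTASQ in vitro alone had 4.66, with BG4/BioTASQ in vitro alone 4.08 and with all lists 4.91.

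BioCyTASQ in vitro peaks had a median of 4.02 in the bins dense in the other lists, against 3.88 in the remaining bins. The difference was 0.140 (SD 0.105, higher on 11 of 12 chromosomes, p = 0.000977, exact, adjusted p = 0.00146). It did not hold up: with rows of a shared name joined it was −0.00956 (adjusted p = 0.812, exact), and with a limit of 4 regions 0.0441 (adjusted p = 0.213, exact). In the dense bins chosen with all lists the difference for BioCyTASQ in vitro was −0.481, and no difference of that size was measured in bins chosen without that list.

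The 10 densest bins, at most 1 per 100 kb, held 10 regions each. Ranked by their number of peaks, the first lay on chromosome 8 (16120001 to 16130000), with 22 peaks in regions that totalled 6452 bp. It held 10 BioCyTASQ in vitro peaks with fold enrichments of 2.12 to 4.83, 6 BioTASQ in vivo peaks of 2.04 to 6.03 and 6 BG4/BioTASQ in vitro peaks of 3.67 to 6.95. Of its regions 3 were held by all lists and 1 by BioCyTASQ in vitro alone. The midpoints of neighbouring regions were 499 to 1646 bp apart, with a median of 1056 bp. The bins beside it held 3 and 5 regions.

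The second, on chromosome 5 (28430001 to 28440000), was made up almost wholly of peaks of 2 lists. It had 10 BioCyTASQ in vitro peaks, the strongest of 10.2 at 28434967 to 28435823, and 8 BioTASQ in vivo peaks, the strongest of 5.91 at 28436652 to 28437208. A single BG4/BioTASQ in vitro peak of 5.54 lay in it. The third, on chromosome 4 (6770001 to 6780000), had 7 BioTASQ in vivo peaks, 7 of BioCyTASQ in vitro and 3 of BG4/BioTASQ in vitro, with no fold enrichment above 5.39. The fourth, on chromosome 3 (20450001 to 20460000), had 6 BioTASQ in vivo peaks, 5 of BioCyTASQ in vitro and 5 of the BG4/BioTASQ in vitro list. Its regions were 8 after rows of a shared name were joined, and the bins beside it were dense as well, with 6 and 8 regions.

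The fifth, on chromosome 4 (8960001 to 8970000), held 7 BioCyTASQ in vitro, 3 BioTASQ in vivo and 6 BG4/BioTASQ in vitro peaks. The sixth, near the first base of chromosome 5 (380001 to 390000), held 9, 5 and 2. The seventh, on chromosome 8 (14380001 to 14390000), differed from the rest in strength. Its 7 BioCyTASQ in vitro peaks had a median fold enrichment of 9.33 and reached 14.1 at 14382048 to 14383169, beside 9 BioTASQ in vivo peaks of at most 6.03. It held 0 peaks of the BG4/BioTASQ in vitro list. The median BioCyTASQ in vitro fold enrichment in the other 9 bins lay between 3.01 and 4.33.

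The eighth, on chromosome 2 (16860001 to 16870000), was led by the BG4/BioTASQ in vitro list. That list had 7 peaks there, 4 of them in regions of its own, and reached 10.1 at 16869018 to 16869787, where BioTASQ in vivo had 7.005 (16868794 to 16869659) and BioCyTASQ in vitro 5.46 (16868718 to 16869379). The bin on its right held 0 regions and the bin on its left 6. The ninth, on chromosome 6 (25760001 to 25770000), and the tenth, on chromosome 7 (6380001 to 6390000), were led by BioCyTASQ in vitro, with 8 and 9 peaks of which 5 each were in regions of that list alone. In the tenth, the strongest BioCyTASQ in vitro peak had 9.31, the strongest BioTASQ in vivo peak 7.53 and the strongest of BG4/BioTASQ in vitro 5.24.

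Over these 10 bins, peaks of BioCyTASQ in vitro and peaks of BioTASQ in vivo were in all 10, and 9 held BG4/BioTASQ in vitro peaks. Among all dense bins, the lists were absent from 1.83%, 1.498% and 17.8% in the same order. The 10 bins had been taken by number of peaks from the 15 with 10 regions, which favours the presence of each list. Median spacing of midpoints lay between 760 and 1120 bp, and within each bin the widest spacing was at least 2 times the narrowest. Joining rows of a shared name left 10 regions in 6 of the bins, 9 in 3 and 8 in 1.

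**Figure D5:**
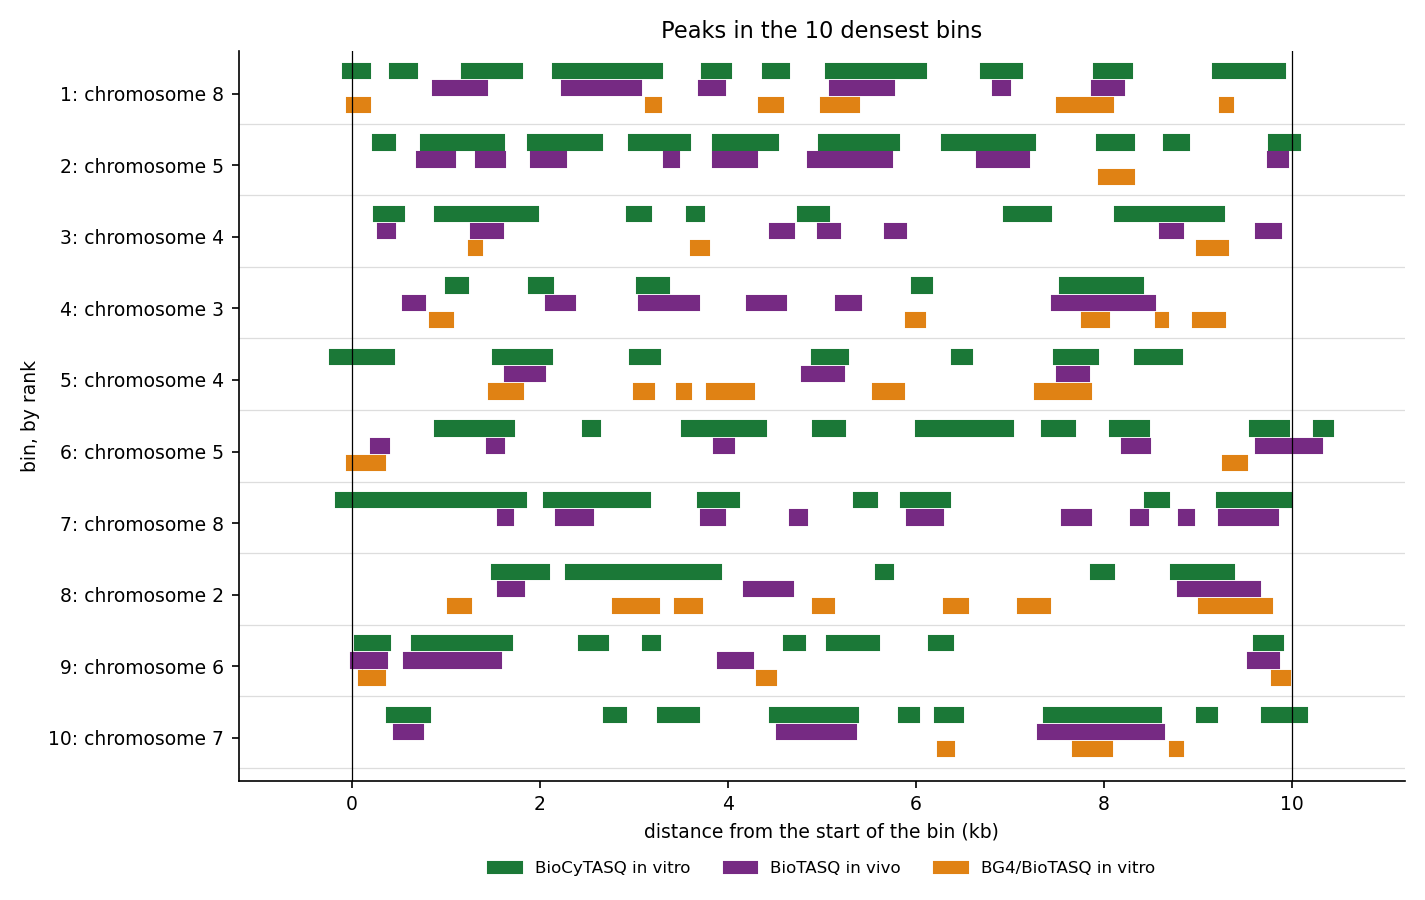
Peaks of each list in the 10 densest bins, by rank, against the distance from the start of the bin (kb), with the bin limits as vertical lines. Peaks of BioCyTASQ in vitro run along every bin, the seventh bin has no BG4/BioTASQ in vitro peak, and the eighth has 7.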

How the data were processed

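The authors deposited 4 peak lists of 10 columns with no header, in the column order of MACS2 narrow peaks. Tools listed in the submitters' processing notes are MACS2 2.1.1, SAMtools 1.5, Trim Galore 0.4.4, Picard and BWA. The build, the control library, the threshold and whether replicates were pooled are not stated in the labels or files. Per the column order, the fold enrichment the authors deposited is a ratio, peak over control, the deposited −log10 p and −log10 q come from the same caller, and the deposited score is derived from −log10 q and was not used further. Fold enrichments were compared within a list only.

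The BG4/BioTASQ in vitro list had 26 repeated rows, which were left out. Intervals of 3 lists that overlapped by at least 1 bp were merged and assigned to 10 kb bins by their midpoint. Chromosome length was the largest peak end. Whole pileups were recovered within 0.001 of −log10 p for 99.97% (BioCyTASQ in vitro) and 99.998% (BioTASQ in vivo) of peaks. Tests were exact sign-flip permutation tests of 4096 sign assignments at a threshold of 0.05. Merging and binning were tested on known intervals. The left-out step, with BioCyTASQ in vitro as the left-out list, and the recovery of pileups were tested on simulated data. The other steps were not tested in this way. The members and the rules for them were chosen with earlier results of these data known. The rule for named regions took the 10 bins with the most regions, ties broken by peaks, at most 1 per 100 kb, and the 3 longest runs of dense bins. Alternatives were bins cut from position 5000, at least 7 regions, merging across gaps of up to 200 bp, −log10 q of at least 3, 20 kb bins with at least 12 regions, and a limit of 4 regions for the left-out lists. Joining rows of a shared name, bins with at least 9 peak midpoints and bins with a call in the other lists were added after seeing the data. Computing used SciPy 1.17.1, pandas 2.3.3 and NumPy 2.4.6 under Python 3.11.15, and plots Matplotlib 3.10.9.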

Additional observations from a re-analysis of the deposited data

How the results depend on the processing

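Of 99 alternative values for 15 results, 80 were counted as kept. These kept their direction and their size within the spread over chromosomes, or their side of the threshold. Numbers of dense bins were judged by a fixed factor instead, and 4 of 7 were counted as kept, 2574 among them. The number of dense bins was 704 with at least 7 regions, 1141 with gaps of up to 200 bp merged, 234 with 20 kb bins and 2574 with at least 9 peak midpoints. The difference of dense minus other bins in the share of regions of BioCyTASQ in vitro alone was 12.2 points with at least 7 regions, 11.7 with gaps merged and 4.11 with at least 9 peak midpoints. For BioTASQ in vivo alone it was −10.6 with 20 kb bins, −9.77 with rows of a shared name joined and −15.0 with 9 midpoints. For BG4/BioTASQ in vitro alone it was −5.47 with 20 kb bins and −7.85 with 9 midpoints, and for all lists 2.26 and 9.34. Adjacent bins held 1.39 times the mean with at least 7 regions. The difference in median fold enrichment was −0.321 for BG4/BioTASQ in vitro with 20 kb bins, and for BioTASQ in vivo 0.169 with 9 midpoints and −0.0597 with rows joined, against 0.0688. For the left-out BioCyTASQ in vitro list it was 0.0441 (adjusted p = 0.213, exact) with a limit of 4 regions and −0.00956 (adjusted p = 0.812, exact) with rows joined, and over the other alternatives it stayed between 0.128 and 0.187. Beyond the construction of each alternative the cause was not tested. No paired analysis was possible because there is 1 list per capture and none per replicate, and for the same reason no replicate could be left out. The planned tests of sequence and gene content were not run, since no genome of the build of the lists was used here. The depth of each list limits which weak peaks were called, and depths per library were not analysed here.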
